A study of Mus musculus with 66 samples.

Results

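The regions described here are the stretches of intergenic sequence in which the authors called a gain or a loss of the histone variant H3.3 in mouse neurons and hippocampal cells. They were taken from 5 deposited lists of H3.3 regions as every entry whose annotation named neither a promoter nor a gene body, and 1825 of the 4651 listed regions (39.2%) were intergenic. Of these, 405 were annotated as gene desert, 1415 as other intergenic sequence, 5 as pericentromere and 0 as subtelomere. A gained region had a higher group mean in the treated libraries than in their controls, and a lost region a lower one, which gave 1154 gained and 671 lost regions.

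All animals were of the C57bl/6 strain, and no allele or transgene was named for the groups used. Cortical neurons from E16.5 embryos were cultured until day 8 in vitro, then stimulated with isotonic KCl for 30 min, 2 hr or 5 hr, or left unstimulated for the same times. Hippocampal nuclei came from mice of about 7 weeks that had 4 weeks of environmental enrichment or were normally housed, and were sorted by the neuronal nuclear protein NeuN into NeuN+ and NeuN- nuclei. H3.3 was immunoprecipitated after crosslinking and sequenced in 29 libraries of 10 groups, out of 66 samples of the series. Each culture group and each NeuN- group had 3 values per region, and each NeuN+ group had 2. For unstimulated neurons at 30 min the labels name 4 libraries, of which 1 repeats another, while 3 values stand in each region. The labels call the cultures biological triplicates and the animals biological duplicates, although the NeuN- groups had 3 libraries, and do not say how many animals were pooled. No marker of cell type was measured in these lists, so the sorted classes are named here by the NeuN gate alone. NeuN- nuclei are of several cell types, and a shift in their mix cannot be told apart from a change within 1 type.

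H3.3 is deposited into chromatin independently of DNA replication. It is therefore the main source of new histone H3 in cells that no longer divide, such as neurons. It is known to mark promoters and gene bodies through the chaperone HIRA, and heterochromatin at telomeres and near centromeres through ATRX and DAXX. Enhancers also carry it. Gene deserts are long stretches without protein-coding genes, and some of them hold enhancers that act over long distances.

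The listing itself fixed several features of the data. Changes under about 3-fold were not listed, since the smallest absolute log2 fold change of an intergenic region in the authors' deposited table was 1.59 to 1.81 by list. A position missing from a list was therefore not shown to be unchanged. Library values did not overlap between the groups in 100% of all listed regions of the 30 min, 2 hr, 5 hr, NeuN+ and NeuN- lists, so the absence of overlap at a region adds nothing to its listing. Values are the authors' normalised read counts per region, and levels were compared within a list only. Low values within a library were multiples of a fixed amount, the worth of 1 read, which was 0.83 to 1.27 at 30 min, 0.76 to 1.36 at 2 hr and 0.88 to 1.18 at 5 hr. In NeuN+ nuclei 1 read was worth 0.785 and 0.855 in the enriched libraries, against 1.51 and 1.03 in the normally housed ones. In NeuN- nuclei 1 read was worth 1.16, 2.64 and 0.54 in the enriched libraries, against 0.95, 0.68 and 0.9 in the normally housed ones. A normalised read count in the cultures was thus close to a number of reads. The second enriched NeuN- library gave the fewest reads per unit, with 2 reads or fewer in 201 of the 430 gained NeuN- regions (46.7%). Per the library names, all libraries of a group shared 1 flow-cell lane at 30 min, at 2 hr and in NeuN- nuclei, so that group and lane cannot be told apart there. At 5 hr each of 3 lanes held 1 KCl and 1 control library, and each NeuN+ library had a lane of its own. The values carry no library name, so no value within a lane could be taken.

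Sequences are shown for 1 gained and 1 lost region of each list, chosen among the named regions for their low adjusted p or their place near a gene of neuronal activity, and for the single place listed in 2 lists. All are mm9 sequence (NCBIM37), plus strand, 5′ to 3′, and each is named by its nearest protein-coding gene. Here and below, a region near a gene is one whose nearest protein-coding gene it was, at any distance, and no link between them was tested. Capitals mark CpG dinucleotides in the first list of sequences, which differ widely in how many they hold.

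Auts2 (30 min, gained, chr5:133318841-133319100): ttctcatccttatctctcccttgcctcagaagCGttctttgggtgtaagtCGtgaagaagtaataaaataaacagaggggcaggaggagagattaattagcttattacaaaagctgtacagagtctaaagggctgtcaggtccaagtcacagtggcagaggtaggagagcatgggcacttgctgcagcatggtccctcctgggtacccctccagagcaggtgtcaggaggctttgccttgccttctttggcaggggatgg
Stmn2 (30 min, lost, chr3:8220201-8220400): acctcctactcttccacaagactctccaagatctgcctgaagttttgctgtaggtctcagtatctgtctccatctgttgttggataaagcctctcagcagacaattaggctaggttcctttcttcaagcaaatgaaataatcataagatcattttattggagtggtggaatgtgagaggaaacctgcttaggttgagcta
Ptgs2 (2 hr, gained, chr1:151957961-151958160): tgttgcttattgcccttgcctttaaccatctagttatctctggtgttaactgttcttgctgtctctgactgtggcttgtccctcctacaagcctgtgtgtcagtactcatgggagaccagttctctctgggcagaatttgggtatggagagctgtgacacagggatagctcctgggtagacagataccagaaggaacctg
Olfm4 (2 hr, lost, chr14:80792221-80792420): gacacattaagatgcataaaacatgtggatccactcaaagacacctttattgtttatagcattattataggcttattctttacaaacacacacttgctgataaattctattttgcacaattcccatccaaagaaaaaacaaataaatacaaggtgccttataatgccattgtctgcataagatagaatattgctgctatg
Lpin1 (5 hr, lost, chr12:16601921-16602180): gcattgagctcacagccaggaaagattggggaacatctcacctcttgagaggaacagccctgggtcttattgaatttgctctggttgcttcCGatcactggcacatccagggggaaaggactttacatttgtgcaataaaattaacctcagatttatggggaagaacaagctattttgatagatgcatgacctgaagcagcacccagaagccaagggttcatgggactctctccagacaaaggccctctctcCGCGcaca
Pcmtd1 (NeuN+, gained, chr1:7170821-7171080): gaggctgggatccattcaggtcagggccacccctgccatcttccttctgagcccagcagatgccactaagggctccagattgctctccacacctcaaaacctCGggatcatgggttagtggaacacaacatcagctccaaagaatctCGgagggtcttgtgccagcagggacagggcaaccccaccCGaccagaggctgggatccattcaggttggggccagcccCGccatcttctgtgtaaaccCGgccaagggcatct
Prkcq (NeuN+, lost, chr2:11085301-11085520): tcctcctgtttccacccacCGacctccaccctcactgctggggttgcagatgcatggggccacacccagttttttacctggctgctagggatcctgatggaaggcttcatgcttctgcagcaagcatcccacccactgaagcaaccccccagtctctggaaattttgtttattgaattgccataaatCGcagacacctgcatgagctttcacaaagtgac
Tor1b (NeuN-, gained, chr2:30799261-30799480): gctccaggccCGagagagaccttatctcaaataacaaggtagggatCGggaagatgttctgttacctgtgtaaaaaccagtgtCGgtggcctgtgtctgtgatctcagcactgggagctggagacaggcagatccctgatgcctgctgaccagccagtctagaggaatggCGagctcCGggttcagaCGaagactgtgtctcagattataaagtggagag
Epha4 (NeuN-, lost, chr1:77283041-77283280): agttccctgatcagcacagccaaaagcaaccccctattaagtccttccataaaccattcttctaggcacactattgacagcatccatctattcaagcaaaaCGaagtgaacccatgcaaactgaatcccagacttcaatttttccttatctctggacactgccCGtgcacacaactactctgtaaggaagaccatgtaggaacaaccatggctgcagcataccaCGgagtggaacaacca

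The region near Gas1, gained after 5 hr of KCl at chr13:60198581-60198860, is shown because it is built almost wholly of a short repeat. Capitals mark its 44 copies of the pentamer CAGCA, while the median of all 1825 intergenic regions was 1 copy.

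Gas1 (5 hr, gained, chr13:60198581-60198860): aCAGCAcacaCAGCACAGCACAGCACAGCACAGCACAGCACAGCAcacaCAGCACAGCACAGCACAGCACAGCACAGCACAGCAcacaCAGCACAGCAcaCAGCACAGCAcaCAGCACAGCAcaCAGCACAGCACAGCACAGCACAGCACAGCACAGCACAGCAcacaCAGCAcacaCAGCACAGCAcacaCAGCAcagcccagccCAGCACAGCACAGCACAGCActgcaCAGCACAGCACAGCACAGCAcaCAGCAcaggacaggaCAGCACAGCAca

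One place was gained after enrichment in both sorted classes. Capitals mark the 180 bases of the NeuN+ region that the NeuN- region shared.

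9230107M04Rik (NeuN+, gained, chr7:14133521-14133740): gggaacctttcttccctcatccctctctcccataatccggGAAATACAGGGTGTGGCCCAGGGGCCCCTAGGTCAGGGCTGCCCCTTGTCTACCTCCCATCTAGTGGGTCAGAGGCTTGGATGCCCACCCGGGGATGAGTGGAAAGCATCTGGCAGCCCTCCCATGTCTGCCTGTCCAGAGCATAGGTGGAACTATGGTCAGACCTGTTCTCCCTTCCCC

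The mm9 sequence of the regions was otherwise mostly unique. In 1791 of the 1825 regions (98.1%) the median word of 31 bases occurred once in the genome. The Gas1 repeat was the exception among the regions shown, with a median of 23 copies.

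The intergenic share of a list was lowest after 30 min of KCl and highest in the sorted nuclei. Intergenic regions were 116 of 457 listed regions (25.4%) at 30 min, 218 of 689 (31.6%) at 2 hr and 192 of 667 (28.8%) at 5 hr. In NeuN+ nuclei they were 731 of 1642 (44.5%), and in NeuN- nuclei 568 of 1196 (47.5%). The 5 hr list was annotated with another gene set than the rest.

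In intergenic sequence, losses outnumbered gains at each KCl time and gains outnumbered losses after enrichment. After 30 min of KCl, 34 intergenic regions were gained and 82 lost, so that 29.3% were gained (95% interval 21.2 to 38.5), against 20.1% gained of all listed regions. After 2 hr, 46 were gained and 172 lost, or 21.1% gained (15.9 to 27.1), against 14.4% of all listed regions. After 5 hr, 88 were gained and 104 lost, or 45.8% gained (38.6 to 53.2), against 44.2% of all listed regions. The split was thus uneven at 30 min and at 2 hr and near even at 5 hr, as in the lists as a whole. In NeuN+ nuclei 556 intergenic regions were gained and 175 lost, or 76.1% gained (72.8 to 79.1), against 71.8% of all listed regions. In NeuN- nuclei 430 were gained and 138 lost, or 75.7% gained (72.0 to 79.2), against 70.7% of all listed regions.

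Intergenic regions leaned further towards gain than the listed promoters and gene bodies, least so at 5 hr. At 30 min 29.3% of intergenic regions were gained, against 17% (13.2 to 21.4) of promoter and gene body regions. At 2 hr the shares were 21.1% and 11.2% (8.54 to 14.5). At 5 hr they were 45.8% and 43.6% (39.1 to 48.2). In NeuN+ nuclei they were 76.1% and 68.4% (65.3 to 71.4), and in NeuN- nuclei 75.7% and 66.2% (62.4 to 69.9). The intervals of the 2 classes met at 30 min and at 5 hr, and did not meet at 2 hr, in NeuN+ or in NeuN- nuclei. The intervals are exact (Clopper-Pearson) and cover the counting of regions only. Neighbouring regions are not independent and the lists are lists of calls, so these shares are given without a test.

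**Figure D1:**
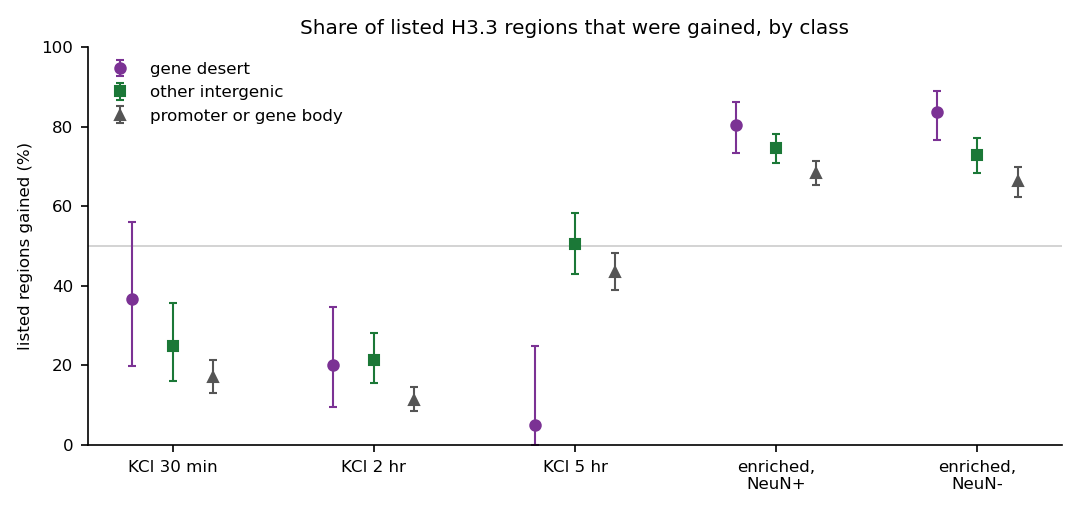
Share of listed H3.3 regions that were gained (%, y axis) in the 5 lists (x axis), for gene deserts, other intergenic sequence and promoters or gene bodies, with exact 95% intervals for the counting of regions. Gene deserts stand at 5.00% at 5 hr, and at 80.4% and 83.6% in enriched NeuN+ and NeuN- nuclei.

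Almost all intergenic regions of 4 lists passed an adjusted p of 0.05 in the authors' deposited table, and few of the 5 hr list did. The counts were 33 gained and 82 lost at 30 min, where 19.9% of all listed regions passed as gained and 78.6% as lost in the authors' deposited table. At 2 hr they were 45 gained and 172 lost, beside 14.2% and 85.3% of all listed regions in the authors' deposited table. At 5 hr they were 4 gained and 4 lost, beside 1.65% and 1.35% of all listed regions in the authors' deposited table. In NeuN+ nuclei 546 gained and 171 lost regions passed, beside 70.1% and 27.7% of all listed regions in the authors' deposited table. In NeuN- nuclei 429 gained and 138 lost regions passed, beside 70.6% and 29.3% in the authors' deposited table. The 5 hr intergenic changes are thus mostly regions of large fold change whose adjusted p missed 0.05.

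Gene deserts parted from other intergenic sequence after 5 hr of KCl. At that time 1 of 20 desert regions was gained (5.00%, 0.126 to 24.9), against 87 of 172 other intergenic regions (50.6%, 42.9 to 58.3). Of these, 2 desert and 6 other regions passed an adjusted p of 0.05 in the authors' deposited table. The 5 hr list was also annotated with another gene set, so its subclasses may not match those of the other lists. At 30 min 11 of 30 desert regions were gained (36.7%, 19.9 to 56.1), against 21 of 84 others (25.0%, 16.2 to 35.6). At 2 hr 9 of 45 desert regions were gained (20.0%, 9.58 to 34.6), against 37 of 173 others (21.4%, 15.5 to 28.2). The intervals of the subclasses met at 30 min and at 2 hr and did not at 5 hr. After enrichment desert regions leaned slightly more to gain. In NeuN+ nuclei 127 of 158 desert regions were gained (80.4%, 73.3 to 86.3), against 426 of 570 others (74.7%, 71.0 to 78.3). In NeuN- nuclei 127 of 152 were gained (83.6%, 76.7 to 89.1), against 303 of 416 others (72.8%, 68.3 to 77.1). The pericentromeric class held 2 regions at 30 min and 3 in NeuN+ nuclei, and all 5 were gained. The difference between desert and other regions was not tested, and base composition moved with it at 5 hr.

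The sizes of change were alike at the 3 KCl times and in NeuN+ nuclei, and larger in NeuN- nuclei. Median log2 fold changes of gained intergenic regions in the authors' deposited table were 1.91, 2.03 and 1.85 at 30 min, 2 hr and 5 hr, 1.97 in NeuN+ and 2.9 in NeuN- nuclei. Those of lost regions in the authors' deposited table were -1.94, -2.02, -1.99, -1.84 and -3.45 in the same order. The highest absolute finite value was 3.15, 3.73, 3.87, 3.09 and 5.48 in that order in the authors' deposited table, and 5 NeuN- regions were infinite because 1 group was at 0. Behind the NeuN- values stood low counts. The median group mean of gained NeuN- regions was 6.79 in enriched and 0.90 in normally housed libraries, and that of lost ones 0.72 in enriched and 6.98 in normally housed libraries. In NeuN+ nuclei the medians were 19.6 in enriched and 5.07 in normally housed libraries for gained regions, and 5.32 and 19.3 for lost ones. In the cultures gained regions had medians of 12.0, 11.5 and 13.0 with KCl for 30 min, 2 hr and 5 hr, and lost ones 13.2, 12.0 and 12.7 in the controls.

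Set against input DNA, the group with more H3.3 was often less than 2-fold above input. The labels name fewer input than H3.3 libraries for each culture and NeuN- group, and no input read count is given per region. In the authors' deposited table the median ratio of gained intergenic regions to input was 2.29 with KCl and 0.56 in control at 30 min, and 2.42 with KCl and 0.435 in control at 2 hr. At 5 hr the authors' deposited table gave 1.73 with KCl and 0.515 in control. In enriched and normally housed NeuN+ nuclei the medians for gained regions were 1.82 and 0.55 in the authors' deposited table, and in NeuN- nuclei 3.16 and 0.39. A ratio of at least 2 in the higher group was reached by 54.5% of gained and 54.9% of lost regions at 30 min, by 67.4% and 62.2% at 2 hr, and by 35.2% and 78.8% at 5 hr, per the authors' deposited table. The shares were 32.9% of gained and 65.7% of lost regions in NeuN+ nuclei, and 86.7% and 72.4% in NeuN- nuclei, per the authors' deposited table. At 5 hr and in NeuN+ nuclei, gained places therefore stood out from input less often than lost ones. The ratio moved the same way as the read count in most regions with a finite ratio: 32 of 33 gained and 75 of 81 lost at 30 min, 45 of 46 and 161 of 168 at 2 hr, and 395 of 396 and 126 of 126 in NeuN- nuclei, per the authors' deposited table. At 5 hr and in NeuN+ nuclei it did so in all regions of the authors' deposited table. The ratio rests on the H3.3 of the same groups, and changes under about 3-fold were not listed. This shared direction was therefore largely set by the listing and is no separate support for it.

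After 30 min of KCl the gained region with the lowest adjusted p lay in a gene desert near Auts2, a regulator of neuronal development. It lies at chr5:133318841-133319100, 299627 bp upstream of the gene, and had 19.02, 14.72 and 15.44 normalised reads with KCl, against 5.07, 3.33 and 3.91 in control. The means were 16.4 ± 2.30 with KCl and 4.10 ± 0.886 in control (SD, n = 3 each). In the authors' deposited table its log2 fold change was 2.00, its adjusted p was 0.00552, and its ratio to input was 10.3 with KCl and 0.57 in control. The ratios differed far more than the means did, so the input level was lower with KCl and part of the ratio rests on input. The 3 control libraries were close to each other there, and the spread among KCl libraries was wider. A region 359053 bp from Zwint, a kinetochore protein gene, followed. It had 10.38, 14.72 and 9.26 with KCl, against 2.54, 3.33 and 0 in control. A region 401853 bp from Reg3g, a secreted antimicrobial lectin, had 11.24, 11.56 and 9.26 with KCl, against 1.27, 1.67 and 2.93 in control. Both had KCl libraries well apart from controls that held a few reads at most. One 808775 bp from Ankrd7 had 10.38, 14.72 and 11.32 with KCl, against 5.07, 2.5 and 0.98 in control. A pericentromeric region near Xkr4 at chr1:3131641-3131840 was also gained, with 12.11, 11.56 and 9.26 with KCl, against 3.80, 4.16 and 0.98 in control. In each of these regions the lowest KCl library stood above the highest control library, but values did not overlap in 100% of all listed 30 min regions.

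Among the lost regions at 30 min, the largest change was near Stmn2, a microtubule regulator of growing axons, at chr3:8220201-8220400, 289127 bp upstream of the gene. It had 1.73, 1.05 and 1.03 normalised reads with KCl, against 11.41, 11.66 and 10.74 in control, or 1.27 ± 0.398 and 11.3 ± 0.476 (SD, n = 3 each). KCl libraries thus held 1 or 2 reads each there, and in the authors' deposited table the log2 fold change was -3.15 and the adjusted p 0.00552. The other lost regions held few reads with KCl. A region near Rorb, a nuclear receptor of cortical layer neurons, had 2.59, 5.26 and 3.09 with KCl, against 15.21, 13.32 and 18.56 in control. Near Zfat, a zinc finger gene, the values were 0.86, 4.21 and 3.09 with KCl and 16.48, 10.82 and 14.65 in control. Near 2700029M09Rik they were 4.32, 4.21 and 0 with KCl and 15.21, 14.99 and 10.74 in control. Npas4, an activity-induced transcription factor gene, had a lost region 10270 bp upstream at chr19:5000241-5000480. It had 5.19, 6.31 and 4.12 with KCl, against 16.48, 16.65 and 15.63 in control, and a log2 fold change of -1.64 and adjusted p of 0.0248 in the authors' deposited table. These lost regions fell to between 0 and 6.31 reads in the KCl libraries, and none of their control libraries was below 10.

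After 2 hr of KCl a gained region lay just downstream of Ptgs2, the activity-induced gene of cyclooxygenase 2. At chr1:151957961-151958160, 2821 bp past the gene, it had 10.11, 12.88 and 12.26 with KCl, against 2.04, 1.67 and 2.45 in control. The means were 11.8 ± 1.45 with KCl and 2.05 ± 0.390 in control (SD, n = 3 each). In the authors' deposited table the log2 fold change was 2.52, the adjusted p was 0.0107, and the ratio to input was 1.91 with KCl and 0.22 in control. The gained region with the lowest adjusted p lay 1006759 bp downstream of Khdrbs3, a splicing regulator gene, at chr15:69930701-69930960, with 14.70, 12.88 and 12.26 with KCl, against 2.04, 2.5 and 1.23 in control. Its log2 fold change was 2.79 and its adjusted p 0.00467 in the authors' deposited table. At both places every KCl library was several-fold above every control library, while values did not overlap in 100% of all listed 2 hr regions. A region near Cox7c, a respiratory chain subunit, had 16.54, 15.15 and 14.98 with KCl, against 5.09, 2.5 and 3.68 in control. One 848014 bp from Pcdh17, a protocadherin of synaptic adhesion, had 11.94, 12.12 and 10.89 with KCl, against 1.02, 3.33 and 2.45 in control. The KCl libraries at these 4 regions kept within 10.11 and 16.54.

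Of the lost regions at 2 hr, the one with the largest change held 1 read or none in every KCl library. It is a region of 32% GC near Olfm4, a secreted glycoprotein gene, at chr14:80792221-80792420, and had 0.92, 0 and 1.36 with KCl, against 9.16, 10.00 and 11.05 in control. The means were 0.760 ± 0.694 with KCl and 10.1 ± 0.947 in control (SD, n = 3 each). Its log2 fold change was -3.73 and its adjusted p 0.00467 in the authors' deposited table. Near Otol1, an inner ear matrix gene, the values were 1.84, 0.76 and 1.36 with KCl and 11.20, 10.83 and 13.50 in control. A region 11774 bp upstream of Cck, a neuropeptide gene of cortical interneurons, had 0.92, 3.03 and 1.36 with KCl, against 10.18, 14.16 and 13.50 in control. The control libraries of both regions were well above their KCl libraries. A region 206897 bp from Gap43, a growth cone protein gene, had 1.84, 2.27 and 0 with KCl, against 11.20, 10.00 and 11.05 in control. The region 231244 bp from Gadd45g, a stress and activity-induced gene, had 2.76, 3.79 and 0 with KCl and 9.16, 10.00 and 14.73 in control. The Gap43 and Gadd45g regions each had a KCl library at 0. The region near Pgm1, a phosphoglucomutase gene, was lost at a higher level, with 9.19, 6.82 and 6.81 with KCl, against 24.44, 24.99 and 22.09 in control.

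At 5 hr the 8 intergenic regions that passed 0.05 were the 4 gained and 4 lost ones described here. The gained region with the lowest adjusted p was the CAGCA repeat 76906 bp downstream of Gas1, a hedgehog-binding membrane protein gene. It had 16.72, 19.31 and 19.84 with KCl, against 1.18, 7.18 and 4.85 in control, or 18.6 ± 1.67 and 4.40 ± 3.02 (SD, n = 3 each). In the authors' deposited table its log2 fold change was 2.08, its adjusted p was 0.0347, and its ratio to input was 1.18 with KCl and 0.53 in control. The gain at the repeat thus stood on a level close to input. A region near Hsd17b12, a lipid enzyme gene, had 21.64, 23.70 and 23.81 with KCl, against 3.54, 10.25 and 8.73 in control. The region named for Pde10a, a phosphodiesterase gene, had 18.69, 20.19 and 20.83 with KCl, against 7.08, 7.18 and 2.91 in control. That named for Tifa, an immune signalling adaptor gene, had 15.74, 19.31 and 21.83 with KCl, against 2.36, 8.20 and 4.85 in control. Another region named for Tifa, at chr3:127506881-127507080, was lost, with 5.90, 4.39 and 3.97 with KCl, against 15.35, 14.35 and 13.58 in control. Its adjusted p was 0.114 in the authors' deposited table, so it did not pass. The Pde10a and Tifa regions overlap those genes in the Ensembl annotation, although the list placed them between genes.

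Of the 4 losses at 5 hr that passed 0.05, 2 were in gene deserts, 24176 bp from Rpl13a-ps1 and 524194 bp from Gm10742. A desert region near Rpl13a-ps1 at chr19:50129401-50129600 had 0, 0.88 and 0.99 with KCl, against 9.44, 9.23 and 8.73 in control, and a log2 fold change of -3.87 and adjusted p of 0.0399 in the authors' deposited table. The KCl libraries at Rpl13a-ps1 held 1 read or none. A desert region near Gm10742 had 0.98, 0.88 and 2.98 with KCl, against 9.44, 12.30 and 11.64 in control. The lowest adjusted p among the losses was near Lpin1, a phosphatidate phosphatase gene, at chr12:16601921-16602180, 5345 bp upstream. It had 0.98, 1.76 and 4.96 with KCl, against 17.71, 14.35 and 11.64 in control, or 2.57 ± 2.11 and 14.6 ± 3.04 (SD, n = 3 each). Near Tmtc1, a glycosyltransferase gene of the endoplasmic reticulum, the values were 5.90, 4.39 and 3.97 with KCl and 18.89, 14.35 and 21.34 in control. A region 237085 bp upstream of the activity-induced nuclear receptor gene Nr4a3 did not pass, with an adjusted p of 0.105 in the authors' deposited table. It had 11.80, 14.05 and 9.92 with KCl, against 2.36, 3.08 and 3.88 in control.

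In NeuN+ nuclei the regions gained after enrichment had nearest genes of several kinds, developmental and activity-induced ones among them. A region 50207 bp downstream of Sox9, a transcription factor gene of glia and cartilage, at chr11:112699281-112699600 had 26.69 and 29.11 in enriched libraries, against 6.02 and 6.16 in normally housed ones. The means were 27.9 ± 1.71 in enriched and 6.09 ± 0.0990 in normally housed libraries (SD, n = 2 each). In the authors' deposited table its log2 fold change was 2.20 and the adjusted p 0.00954, and its ratio to input was 1.72 in enriched and 0.41 in normally housed nuclei. The normally housed pair nearly coincided at Sox9. A region of 58.8% GC near Pcmtd1 had 29.04 and 23.97 in enriched libraries, against 3.01 and 7.19 in normally housed ones. Near Gm10803 the values were 37.68 and 33.39 in enriched and 6.02 and 12.33 in normally housed libraries. Near 2010107G23Rik they were 25.90 and 29.11 in enriched and 6.02 and 6.16 in normally housed libraries. The widest split among the normally housed libraries of these regions was at Gm10803. The largest log2 fold change of the list, 3.09 in the authors' deposited table, was near Fut9, a fucosyltransferase gene, with 18.84 and 16.27 in enriched libraries, against 0 and 4.11 in normally housed ones. For other gained regions the nearest protein-coding gene was 1 of 3 activity-induced genes. They lay 27223 bp from Egr2, 101444 bp from Gadd45g and 141024 bp from Rasgrp1. An annotated gene of another type was closer to the Gadd45g and Rasgrp1 regions. Near Egr2, a zinc finger transcription factor gene, the values were 18.05 and 18.84 in enriched and 6.02 and 4.11 in normally housed libraries. Near Gadd45g they were 22.76 and 23.12 in enriched and 9.03 and 3.08 in normally housed libraries. Near Rasgrp1, a Ras exchange factor gene, they were 24.33 and 19.69 in enriched and 4.52 and 8.22 in normally housed libraries. In all 3 cases the enriched libraries lay above both normally housed ones, but values did not overlap in 100% of all listed NeuN+ regions. A pericentromeric region near Xkr4 at chr1:3175121-3175360 had 22.76 and 31.68 in enriched libraries, against 3.01 and 9.25 in normally housed ones. At Pcmtd1, Gm10803, Gadd45g and the pericentromeric region, 1 normally housed value was more than 2-fold the other. At Fut9 the normally housed pair differed too, with 1 value at 0 and the other at 4.11.

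Losses in NeuN+ nuclei were led by a region near Prkcq, a protein kinase C gene, at chr2:11085301-11085520. It had 4.71 and 5.99 in enriched libraries, against 19.57 and 24.66 in normally housed ones, or 5.35 ± 0.905 and 22.1 ± 3.60 (SD, n = 2 each). In the authors' deposited table its log2 fold change was -2.05 and the adjusted p 0.0179. The groups were well apart although both held several reads. Near Apol7d the values were 7.85 and 7.71 in enriched and 24.09 and 29.79 in normally housed libraries. A desert region near Rnf144b, a ubiquitin ligase gene, had 5.49 and 4.28 in enriched libraries, against 19.57 and 22.60 in normally housed ones. Near Tmem45a the values were 4.71 and 5.99 in enriched and 25.59 and 19.52 in normally housed libraries. Per the authors' deposited table, the enriched ratio to input was 0.53 at Prkcq, 0.52 at Apol7d, 0.39 at Rnf144b and 0.69 at Tmem45a, so the reads left in the enriched libraries were below the input level.

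In NeuN- nuclei the gained regions were small in reads. A desert region near Nxph1, a ligand of neurexins, at chr6:9344901-9345260 had 13.96, 7.93 and 10.84 in enriched libraries, against 0, 1.35 and 2.71 in normally housed ones. The means were 10.9 ± 3.02 in enriched and 1.35 ± 1.35 in normally housed libraries (SD, n = 3 each). Its log2 fold change was 3.01 and its adjusted p 0.00201 in the authors' deposited table. The enriched libraries at Nxph1 were spread widely, and 1 normally housed library was at 0. Near Fbxw19, an F-box protein gene, the values were 10.47, 13.21 and 10.30 in enriched and 0, 2.70 and 0.90 in normally housed libraries. Near Cnnm4, a magnesium transporter gene, they were 10.47, 7.93 and 7.05 in enriched and 0.95, 0.68 and 0 in normally housed libraries. A region near Tor1b, a torsin chaperone gene, had 5.82, 5.28 and 6.51 in enriched libraries and was listed at 0 in the 3 normally housed ones. The middle value of that enriched group is 2 reads, so no fold is given. Ptgs2 also had a gained region in these nuclei, at chr1:151903481-151903680, with 9.31, 5.28 and 5.42 in enriched libraries, against 0, 1.35 and 0.90 in normally housed ones. It does not overlap the region gained after 2 hr of KCl near the same gene.

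Losses in NeuN- nuclei went down to 0 or 1 read in most enriched libraries. A desert region 80480 bp downstream of Epha4, an ephrin receptor gene of axon guidance, at chr1:77283041-77283280 had 0, 0 and 0.54 in enriched libraries, against 7.58, 8.79 and 6.33 in normally housed ones. The means were 0.180 ± 0.312 in enriched and 7.57 ± 1.23 in normally housed libraries (SD, n = 3 each). Its log2 fold change of -5.39 in the authors' deposited table rested on 1 read in the enriched group. Other regions showed the same picture of an almost empty enriched group. The region near B130024G19Rik had 0, 0 and 0.54 in enriched libraries, against 6.63, 8.11 and 7.23 in normally housed ones. A desert region lay 708256 bp from Gfra2, a neurturin receptor gene. It had 0, 0 and 0.54 in enriched libraries, against 6.63, 6.76 and 10.85 in normally housed ones. Near Tnfsf8, an immune ligand gene, the values were 0, 2.64 and 1.08 in enriched and 10.43, 8.11 and 9.95 in normally housed libraries.

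**Figure D2:**
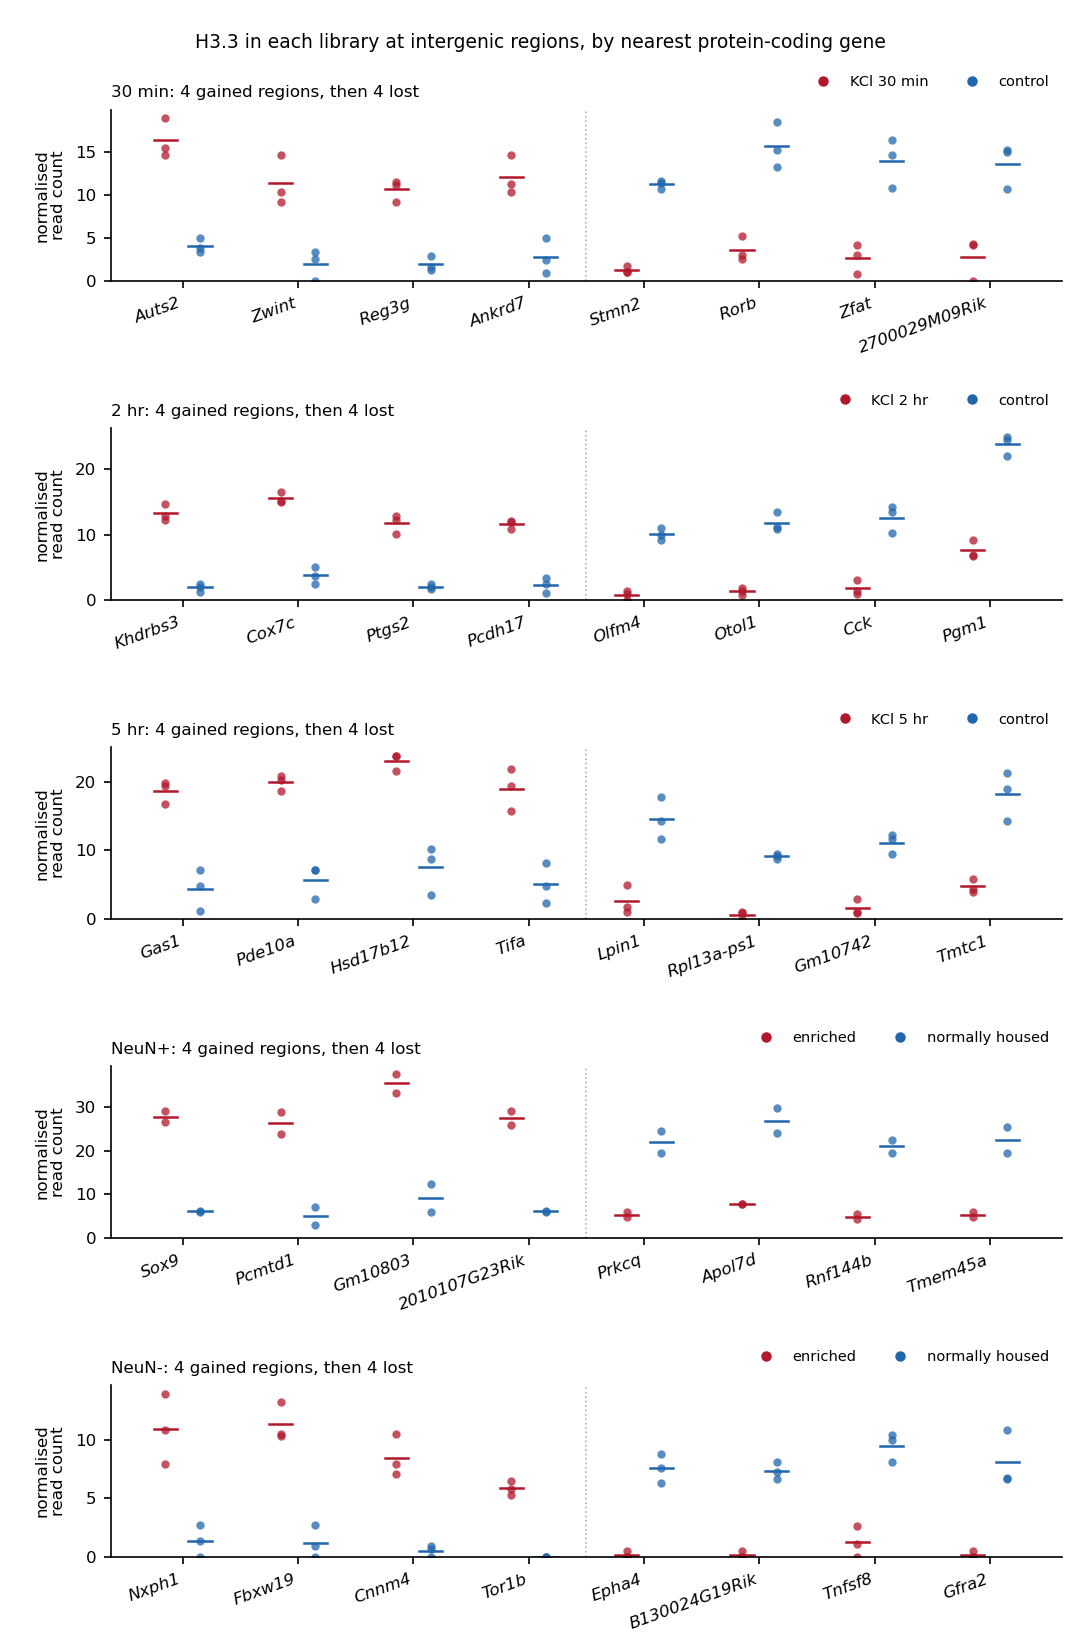
Normalised read count of each library (y axis, points; lines are group means) at the 4 gained and the 4 lost intergenic regions of each list with the lowest adjusted p, named by nearest protein-coding gene, with treated libraries in red left of their controls in blue. At 5 hr the KCl libraries reach 16.72 to 19.84 at the Gas1 repeat, and at Stmn2 at 30 min they lie between 1.03 and 1.73.

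Gained and lost intergenic regions differed in GC content in every list, but not in the same direction. After 2 hr of KCl, gained regions had a median GC of 48.8% and lost ones 43.6%. After 5 hr the medians were 51.0% for gained and 45% for lost regions, and in NeuN+ nuclei 51.5% and 45.5%. The order was the opposite at 30 min, with 44.5% for gained and 46.8% for lost regions, and in NeuN- nuclei, with 45% and 47.4%. All of these medians were above the 42.0% of autosomal mm9 sequence cut into tiles of 200 bp.

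When the intergenic regions of each list were cut into 3 equal groups by GC content, low, middle and high, the gained share climbed with GC in 3 lists. At 2 hr it was 7.89%, 15.9% and 39.7% in the low, middle and high group, at 5 hr 15.2%, 41.9% and 81.2%, and in NeuN+ nuclei 52.8%, 80.2% and 96.7%. In NeuN- nuclei it ran down, with 85.4%, 75.5% and 65.6%, and at 30 min it was 43.9%, 16.2% and 26.3%. Promoter and gene body regions cut at the same GC values gave 2.27%, 7.74% and 21.6% at 2 hr, 15.3%, 53.0% and 75.5% at 5 hr, and 28.7%, 70.3% and 94.9% in NeuN+ nuclei. They gave 77.1%, 67.5% and 59.7% in NeuN- nuclei, and 24.3%, 16.0% and 11.8% at 30 min. The order of the 3 groups was the same in both classes in each list but that of 30 min, where the promoter and gene body share was lowest in the high group and the intergenic one in the middle group. The widest gap at like GC was in the low-GC group in NeuN+ nuclei, at 52.8% (46.4 to 59.0) for intergenic regions and 28.7% (23.4 to 34.4) for promoter and gene body regions. The part of GC content in the gained shares was not tested.

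**Figure D3:**
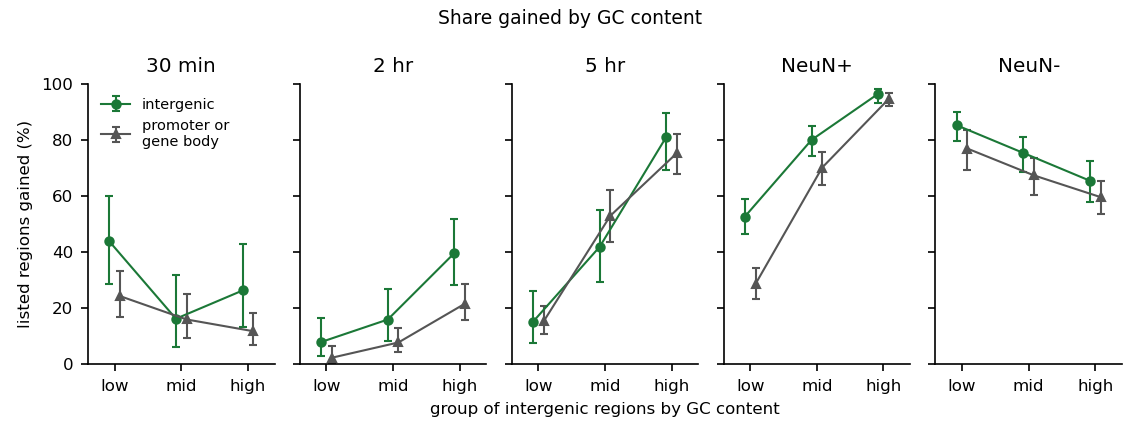
Share of listed regions that were gained (%, y axis) in 3 equal groups of GC content (x axis, cut points set on the intergenic regions of each list), for intergenic regions and for promoters or gene bodies, with exact 95% intervals for the counting of regions. The intergenic share is 96.7% in the high-GC group in NeuN+ nuclei and 15.2% in the low-GC group at 5 hr.

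Base composition differed between the intergenic subclasses. Desert regions had a lower median GC than other intergenic regions in every list: 43.0% and 47.0% at 30 min, 40.9% and 46.0% at 2 hr, 44.5% and 48.8% at 5 hr, 48.7% and 50.5% in NeuN+ and 43.0% and 46.0% in NeuN- nuclei. At 5 hr, 14 of the 20 desert regions fell in the low-GC group, and 0 of 14 were gained there, against 10 of 52 other intergenic regions. In the middle group 1 of 5 desert regions was gained, against 25 of 57 others, and in the high group 0 of 1, against 52 of 63. In NeuN- nuclei 70 of 74 desert regions of the low-GC group were gained (94.6%), against 94 of 118 others (79.7%). In NeuN+ nuclei all 43 desert regions of the high-GC group were gained, against 187 of 195 others (95.9%).

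CpG dinucleotides, the sites of DNA methylation, were sparse. The median per 100 bp was 0.5 in gained and 1 in lost regions at 30 min, and 0.909 and 0.833 in NeuN+ nuclei. It was the same in gained and lost regions at 2 hr, at 5 hr and in NeuN- nuclei, at 0.5, 1 and 0.5. At 30 min 12 of 34 gained regions had no CpG (35.3%), against 11 of 82 lost ones (13.4%), and among promoter and gene body regions 10.3% of gained and 14.8% of lost ones. In the other lists the intergenic shares without CpG were 28.3% of gained and 24.4% of lost regions at 2 hr, 11.4% and 15.4% at 5 hr, 21.6% and 20.0% in NeuN+ and 28.8% and 24.6% in NeuN- nuclei. The printed Stmn2, Ptgs2, Olfm4 and Gas1 sequences have none.

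Among the short words searched for, that of AP-1 was about as frequent as in genome tiles. A CA run was rarer than in tiles in each list, and the E-box and GC box varied by list. On both strands of the central 200 bp, TGANTCA, the AP-1 word bound by Fos and Jun, was in 6.03%, 6.42%, 7.29%, 6.43% and 6.87% of intergenic regions at 30 min, 2 hr, 5 hr, in NeuN+ and in NeuN- nuclei, against 5.96% of genome tiles. TGACGTCA, the word bound by CREB, was in 0 of the 1825 regions, against 0.111% of tiles. It is so scarce in tiles that 0 matches do not show it to be rarer in the regions. CACGTG, an E-box, was in 0.862% to 4.69% by list, against 1.99% of tiles. A run of 6 CA dinucleotides was in 0.862% to 2.29%, against 3.12% of tiles. GGGCGG, the GC box, was in 2.59%, 0.459%, 3.12%, 2.74% and 1.23% of intergenic regions in the same order of lists, against 2.01% of tiles, and in 3.23%, 1.49%, 3.58%, 6.48% and 1.43% of promoter and gene body regions. Of gained and lost intergenic regions, 1 of 34 and 2 of 82 held it at 30 min, 0 of 46 and 1 of 172 at 2 hr, and 5 of 88 and 1 of 104 at 5 hr. It was in 19 of 556 gained and 1 of 175 lost regions in NeuN+ nuclei, and in 7 of 430 and 0 of 138 in NeuN- nuclei. A match describes these letters and not the binding of a factor, and GC-rich words move with the GC content given above.

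The regions lay far from genes in 4 lists. The median distance to the nearest protein-coding gene was 89872 bp at 30 min, 65381 bp at 2 hr, 57398 bp in NeuN+ and 73240 bp in NeuN- nuclei, and 20882 bp at 5 hr. The farthest region lay 2104426 bp away, in NeuN+ nuclei. The 5 hr list carried a different gene annotation, and 34 of its 192 intergenic regions (17.7%) overlapped an Ensembl gene or the 3 kb upstream of one. That was so for 7 regions (6.03%) at 30 min, 12 (5.50%) at 2 hr, 3 (0.410%) in NeuN+ and 16 (2.82%) in NeuN- nuclei. The shorter distance at 5 hr and the difference in annotation cannot be told apart.

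The gained share differed little with distance in the sorted nuclei. In NeuN+ nuclei the gained share was 73.0% of 115 regions under 10 kb, 74.9% of 331 at 10 to 100 kb, 77.7% of 229 at 100 to 500 kb and 82.1% of 56 beyond 500 kb, against 76.1% of all its intergenic regions. In NeuN- nuclei it was 71.8%, 74.6%, 77.6% and 80.4% of 85, 244, 183 and 56 regions, against 75.7% of all. The share was a little larger with each step away from genes in both sorted classes, whose nuclei may come from the same animals, and the difference between steps was not tested. In the cultures no such order was seen, with 11.8%, 34.1%, 29.2% and 42.9% at 30 min, 11 of 40, 16 of 97, 14 of 67 and 5 of 14 at 2 hr, and 43.2%, 55.4%, 38.5% and 0% at 5 hr. The last bin of the cultures held 7, 14 and 5 regions.

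**Figure D4:**
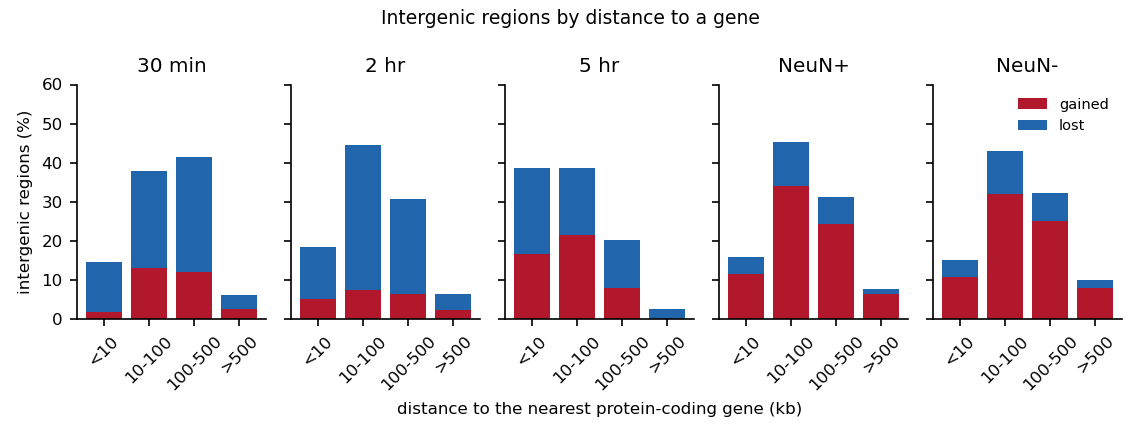
Percentage of the intergenic regions of each list (y axis) by distance to the nearest protein-coding gene in kb (x axis), with gained regions in red and lost ones in blue. At 5 hr 74 of 192 regions lie within 10 kb of a gene, and in NeuN+ nuclei 331 of 731 lie at 10 to 100 kb.

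Few of the nearest genes were themselves overlapped by a listed promoter or gene body region. Such an overlap in the same list was found for 5 regions at 30 min, 13 at 2 hr, 9 at 5 hr, 50 in NeuN+ and 35 in NeuN- nuclei. Listed promoter regions outside the gene itself were not counted. At least 1 overlapping region had the same direction for 2, 9, 6, 34 and 21 of them, in the same order. No expected share was set beside these counts.

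The genes nearest to intergenic regions were counted in 9 gene lists. In NeuN+ nuclei 22 regions (3.01%) lay nearest to 20 developmental transcription factor genes, 19 gained and 3 lost, against 76.1% gained of all intergenic regions, and Sox9 was one of them. In NeuN- nuclei there were 14, 9 gained and 5 lost. The share of all intergenic regions to set beside these NeuN- counts and those that follow is 75.7% gained, and 76.1% in NeuN+ nuclei. Olfactory and vomeronasal receptor genes, which lie in large clusters, had 11 gained and 0 lost regions in NeuN+ nuclei and 13 gained and 3 lost in NeuN- nuclei. Synaptic organiser genes, among them Cntn5, a neuronal adhesion molecule, had 10 gained and 2 lost regions in NeuN+ nuclei and 6 gained and 0 lost in NeuN- nuclei. At 30 min and at 5 hr they had 2 lost regions each. Protocadherins, neuronal adhesion molecules, had 3 gained and 1 lost in NeuN+ nuclei, 6 gained and 0 lost in NeuN- nuclei, and 1 of each at 2 hr. Axon guidance genes, such as Epha4, had 3 gained and 5 lost regions in NeuN- nuclei, 2 gained and 1 lost in NeuN+ nuclei, 0 gained and 2 lost at 2 hr, and 1 gained and 2 lost at 5 hr. Cadherins had 3 gained and 2 lost regions in NeuN+ nuclei, 4 gained and 1 lost in NeuN- nuclei, and 1 lost at 2 hr.

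Activity-induced genes had few intergenic regions. There was 1 lost region near Npas4 at 30 min. At 2 hr there was a gained one near Ptgs2 and a lost one near Gadd45g, and at 5 hr a gained one near Nr4a3. Enriched NeuN+ nuclei had 4 gained regions near Gadd45g, Rasgrp1 and Egr2, and NeuN- nuclei had 1 near Ptgs2. Glutamate and GABA receptor genes had 1 gained region each at 2 hr, at 5 hr and in NeuN- nuclei, and 2 gained and 1 lost in NeuN+ nuclei. Chromatin regulator genes had a single region, lost at 2 hr near Smarca2, an ATPase of the BAF remodelling complex. The counts are small, and nothing particular to a gene list is read from them.

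Along the chromosomes the autosomes carried intergenic regions throughout and the X chromosome almost none. The Y chromosome held 2 at 30 min, 2 gained and 0 lost, or 12.6 per 100 Mb of its short length, and 0 in each other list. Autosomes had 4.61, 8.78 and 7.77 regions per 100 Mb at 30 min, 2 hr and 5 hr, 29.5 in NeuN+ and 22.9 in NeuN- nuclei. The X had 0 at 30 min, 1 at 2 hr, 0 at 5 hr, 1 in NeuN+ and 1 in NeuN- nuclei, and 1 region is 0.600 per 100 Mb there. The X makes up 6.32% of the length of autosomes and X, yet held 3 of 1825 intergenic and 10 of all 4651 listed H3.3 regions. The list of the same series for CATCH-IT, which captures newly made histones after 5 hr of KCl, had 1067 intergenic regions on the X, or 640 per 100 Mb, against 1154 per 100 Mb on autosomes. The sex of the animals was not used here, and whether the X was treated differently in making the H3.3 lists was not tested.

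Among autosomes the density of intergenic regions varied, and not in the same order in every list. The densest was chromosome 18 at 30 min and at 2 hr, with 7.71 and 15.4 regions per 100 Mb, while the same chromosome was the sparsest at 5 hr with 1.10. In NeuN+ nuclei chromosome 3 was densest with 45.1 and chromosome 19 sparsest with 17.9. In NeuN- nuclei chromosome 8 had 31.9 and chromosome 10 had 14.6. Losses outnumbered gains on 17 of 19 autosomes at 30 min and on 18 at 2 hr, and gains outnumbered losses on 8 of 19 at 5 hr. Gains outnumbered losses on all 19 in NeuN+ nuclei and on 18 in NeuN- nuclei, where chromosome 8 had as many losses as gains (50.0% gained). The gained share ran between 54.2% on chromosome 16 and 90.9% on chromosome 19 in NeuN+ nuclei, and reached 89.7% on chromosome 3 in NeuN- nuclei.

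**Figure D5:**
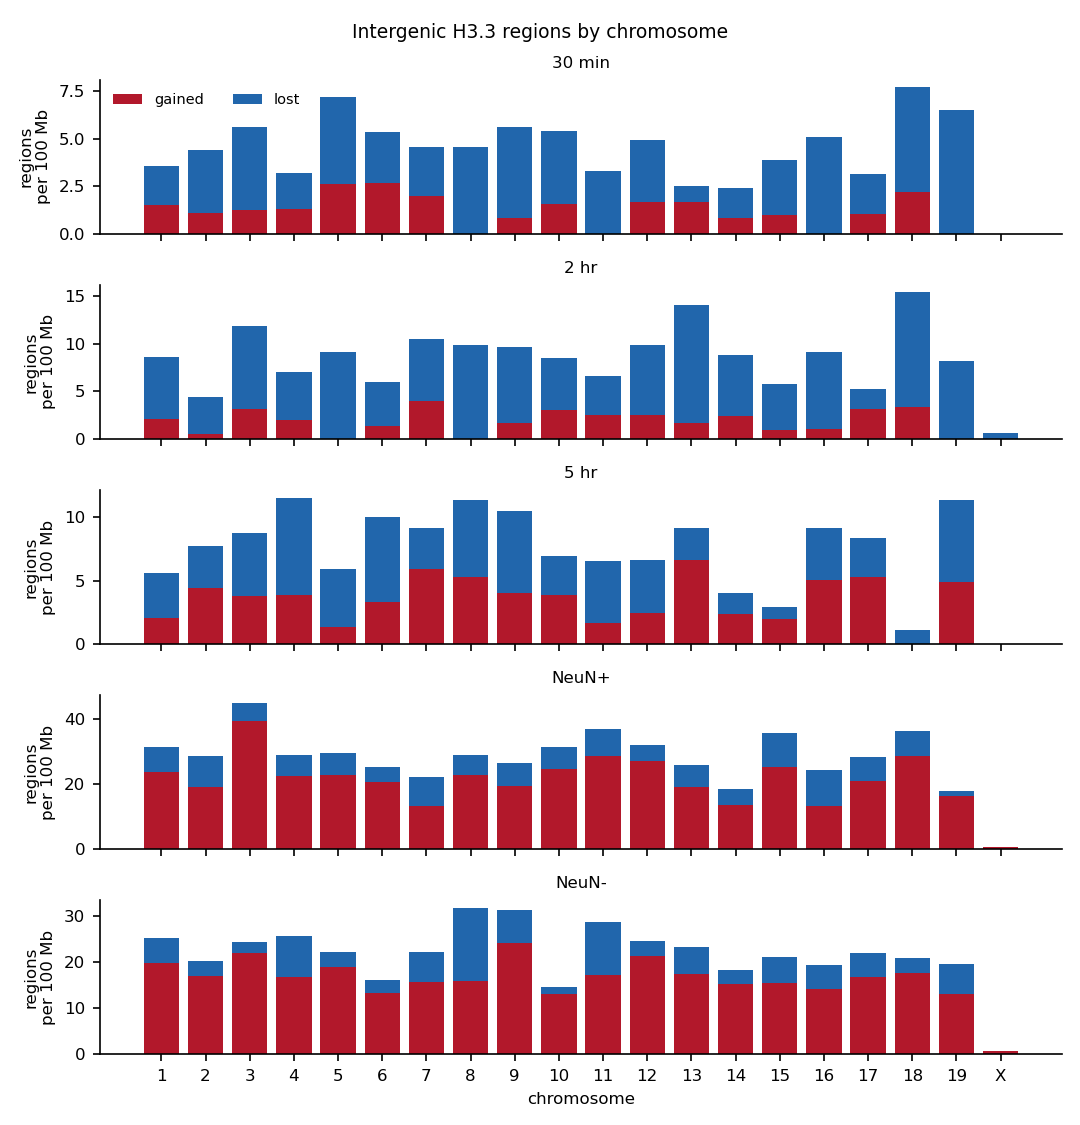
Intergenic H3.3 regions per 100 Mb (y axis) on each autosome and the X (x axis) in the 5 lists, with gained regions in red and lost ones in blue. The Y chromosome is not shown. The X chromosome holds at most 1 region per list, and chromosome 8 in NeuN- nuclei has 21 gained and 21 lost.

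Neighbouring regions shared direction about as often as regions taken from anywhere on the same chromosome. Of consecutive intergenic regions at most 1 Mb apart, 1 of 3 pairs (33.3%) had the same direction at 30 min, against 56.7% of all pairs on a chromosome. At 2 hr it was 17 of 24 (70.8%, 48.9 to 87.4), against 67.0%, and at 5 hr 14 of 29 (48.3%, 29.5 to 67.5), against 49.8%. In NeuN+ nuclei it was 123 of 207 (59.4%, 52.4 to 66.2), against 64.9%, and in NeuN- nuclei 92 of 146 (63.0%, 54.6 to 70.8), against 64.0%. The share of all pairs lay inside each of these intervals, and at 30 min, with 3 pairs, the interval ran between 0.840% and 90.6%. Over all listed regions, promoters and gene bodies included, neighbours at most 1 Mb apart shared direction in 71.4%, 81.2%, 52.4%, 63.5% and 58.7% of pairs, against 67.7%, 74.9%, 50.0%, 60.1% and 59.0% of all pairs on a chromosome. Within 100 kb there were no pairs at 30 min, 2 of 3 with the same direction at 2 hr, 1 of 4 at 5 hr, 29 of 44 (65.9%) in NeuN+ and 19 of 28 (67.9%) in NeuN- nuclei.

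Intergenic regions stood mostly alone. The median gap between consecutive regions was 13830931 bp at 30 min, 5239171 bp at 2 hr, 6000581 bp at 5 hr, 2133961 bp in NeuN+ and 2568151 bp in NeuN- nuclei. Runs with gaps of at most 100 kb numbered 0 at 30 min, 3 at 2 hr and 4 at 5 hr, each a pair. Both directions were held by 1 of the pairs at 2 hr and by 3 at 5 hr. NeuN+ nuclei had 39 runs with 83 regions, of which 4 held 3 or more regions and 15 held both directions. NeuN- nuclei had 27 runs with 55 regions, of which 1 held 3 and 9 held both directions. The run with most regions was in NeuN+ nuclei at chr12:113523521-113594320 near Kif26a, a kinesin family gene, with 3 gained regions and 1 lost within 70800 bp. In NeuN- nuclei 3 gained regions lay within 12520 bp at chr17:60323541-60336060, in a stretch whose nearest protein-coding gene was Nudt12. The pairs at 2 hr lay near Rbfox1, a neuronal splicing factor gene, and Gm5908, where both regions were lost, and near the imprinted genes Peg3 and Usp29, where 1 was lost and 1 gained.

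One place was intergenic and listed in 2 H3.3 lists, and it was gained in both. The NeuN+ region at chr7:14133521-14133740 and the NeuN- region at chr7:14133561-14133760 shared 180 bp, 6472 and 6452 bp downstream of 9230107M04Rik. In NeuN+ nuclei it had 17.27 and 17.98 in enriched libraries, against 1.51 and 5.14 in normally housed ones, or 17.6 ± 0.502 and 3.32 ± 2.57 (SD, n = 2 each). In NeuN- nuclei it had 6.98, 5.28 and 5.42 in enriched libraries, against 1.90, 0.68 and 0 in normally housed ones, or 5.90 ± 0.944 and 0.860 ± 0.963 (SD, n = 3 each). The authors' deposited table gave a log2 fold change of 2.41 and adjusted p of 0.0309 in NeuN+ nuclei. In NeuN- nuclei the values in the authors' deposited table were 2.78 and 0.00776. The place has 59.5% GC in the NeuN+ and 61.5% in the NeuN- interval, above the medians of both lists. The lists share no control libraries, and no intergenic region of a culture list overlapped another H3.3 list.

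CATCH-IT regions overlapped few intergenic H3.3 regions. The CATCH-IT list held 53020 regions, of which 29639 were intergenic and 57.2% of these were gained (56.6 to 57.7). Overlap of at least 1 bp was found for 0 regions at 30 min, 5 (2.29%) at 2 hr, 3 (1.56%) at 5 hr, 10 (1.37%) in NeuN+ and 6 (1.06%) in NeuN- nuclei, 24 in all. For promoter and gene body regions the shares were 1.47%, 1.27%, 0.632%, 1.76% and 1.11%. The direction was the same for 14 of the 24, with 1 of 5 at 2 hr and 1 of 3 at 5 hr. It was the same for 7 of 10 in NeuN+ and 5 of 6 in NeuN- nuclei. CATCH-IT was made in cultured neurons after 5 hr of KCl, so the sorted nuclei differ from it in tissue and treatment. Over all 24, H3.3 and CATCH-IT were both gained in 9 and both lost in 5. A further 3 were gained in H3.3 and lost in CATCH-IT, and 7 the reverse.

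The 3 overlaps at 5 hr have the treatment and time of the CATCH-IT list, from other libraries. A region near Zfp292, a zinc finger gene, at chr4:34739361-34739560 was gained in H3.3, with 10.82, 10.53 and 9.92 with KCl, against 1.18, 2.05 and 2.91 in control. CATCH-IT was gained there too, with 8.02, 3.20 and 16.31 with KCl and 0 in the 3 controls. Both readouts were thus higher with KCl near Zfp292. A region near Rab2a, a secretory pathway GTPase gene, at chr4:8574861-8575120 was lost in H3.3, with 5.90, 6.14 and 5.95 with KCl, against 21.25, 18.45 and 14.55 in control. CATCH-IT was gained there, with 1.34, 6.39 and 2.72 with KCl and 0 in the 3 controls. The readouts went opposite ways near Rab2a. A region near Chrm2, a muscarinic receptor gene, at chr6:36555741-36555940 was lost in H3.3, with 0.98, 0.88 and 3.97 with KCl, against 9.44, 10.25 and 8.73 in control. CATCH-IT was gained there as well, with 1.34, 4.79 and 2.72 with KCl and 0 in the 3 controls. The adjusted p of the H3.3 change in the authors' deposited table was 0.0900 near Zfp292, 0.0909 near Rab2a and 0.105 near Chrm2, so none of the 3 passed 0.05. Gain of newly made histone was thus listed both where H3.3 was gained and where it was lost, at levels of a few reads.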

How the data were processed

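H3.3 regions were read from 5 deposited lists and CATCH-IT regions from a further one. The submitters' processing notes name Bowtie 0.12.7, bedtools 2.16.2 and the build mm9, and the tool and test that called the regions are not given in the sources used here. Each region held the authors' normalised read counts per library, packed in one cell without library names, and group means, a deposited coverage signal. The authors also deposited a ratio of each group to input, log2 fold changes (treated over control) and p-values with their adjustment. The number of per-sample columns left unused was 0.

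Regions were kept when their annotation named neither promoter nor gene body. A value per read was accepted where at least 99% of a library's low values were whole multiples of it within 0.1. Because the lists hold called regions only, no new test was run, and p-values are the authors'. Shares carry exact (Clopper-Pearson) 95% intervals, which cover counting error only. GC content, CpG, words of 31 bases and motifs were read from the mm9 genome, and genes from its Ensembl annotation. Regions named were the 4 gained and 4 lost of each list with the lowest adjusted p, those shared between lists, the largest change of each subclass, the run with most regions, up to 3 per gene list and the CATCH-IT overlaps at 5 hr, and 1 or more of each kind are described. The members and gene lists were chosen with earlier results of these data known. Overlap and neighbour counts were checked on simulated data. Alternatives were a stricter adjusted p of 0.01, other class limits, gaps, overlaps and level minimums, and leaving out each value. Python 3.11.15, numpy 2.4.6, pandas 2.3.3, scipy 1.17.1 and matplotlib 3.10.9 were used.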

Additional observations from a re-analysis of the deposited data

How the results depend on the processing

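Across 91 alternatives, 81 values stayed within the limits set and 10 moved. With the adjusted p of the authors' deposited table held to 0.01 in place of 0.05, intergenic regions that passed numbered 3 at 30 min (115 at 0.05), 11 at 2 hr (217), 0 at 5 hr (8) and 3 in NeuN+ nuclei (717), while 551 of 567 passed in NeuN- nuclei. Counting as intergenic every region that overlaps no annotated gene gave 30.4% of the list at 30 min, 48.5% in NeuN+ and 51.3% in NeuN- nuclei. Neighbours at 5 hr within 100 kb shared direction in 25.0% of pairs, and at 30 min there was no such pair and so no value. Requiring a mean of at least 10 in the higher group left 23 NeuN- regions, of which 100% were gained. Intergenic 5 hr regions with a CATCH-IT region within 1 kb numbered 17, against 3 that overlap one. Leaving out each value in turn changed no gained share, which stayed at 29.3% at 30 min, 21.1% at 2 hr, 45.8% at 5 hr, 76.1% in NeuN+ and 75.7% in NeuN- nuclei, but direction is fixed by a listing in which groups do not overlap, so this is no sign of stability. No paired analysis was possible because the values packed in each region's cell carry no library name. Depth limits the NeuN- values, of which many are 1 or 2 reads. The cause of each move other than the 0.01 limit, which keeps fewer regions by construction, was not tested.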
